A study of Sus scrofa with 4 samples.

Results

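The enzymes described here are the cytochrome P450s, the steroid carrier STAR, the glutathione transferases (GST), sulfotransferases (SULT), aldehyde dehydrogenases (ALDH), aldo-keto reductases (AKR) and hydroxysteroid dehydrogenases (HSD17B and HSD3B) of porcine fat cells. They were taken by gene name from the array files: every name that begins with one of these family stems, plus STAR, with CYP1A1, CYP1A2, CYP1B1 and UGT1A6 left out. This gave 60 gene names with 147 probes, of 34853 gene names with 43603 probes in all. Each of 4 conditions was read on 1 porcine oligonucleotide array, and according to the methods the RNA of a condition was pooled before labelling. PIP cells are a preadipocyte line established from the longissimus muscle of a Duroc pig, so that all 4 arrays come from the same line. Porcine mature adipocytes (pMA) are PIP cells kept for 4 days in medium with fetal bovine serum, penicillin, streptomycin, 50 ng/mL insulin, 0.25 μM dexamethasone, 2 mM octanoate and 200 μM oleate. The unstimulated and both stimulated pMA share this medium, and PIP cells did not receive it. Stimulated pMA received 100 μM serotonin (the labels write the dose per ml) or 2.5 μg/mL TNF-α for 12 h. With 1 array a condition, no difference below could be set against replicates, and no test was made. The unstimulated pMA array is the denominator of both stimulation ratios and the numerator of the differentiation ratio, so its chance deviations enter all 3 comparisons.

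Cytochrome P450s are haem enzymes that insert oxygen into steroids, sterols, retinoids, fatty acids and drugs, and they take their electrons from POR in the endoplasmic reticulum or from FDXR and FDX1 in mitochondria. Steroid synthesis starts when STAR moves cholesterol into mitochondria and CYP11A1 cleaves its side chain, and aromatase (CYP19A1) later turns androgens into estrogens, a reaction for which adipose tissue is a known site. The AKR, ALDH and HSD enzymes reduce or oxidise carbonyl groups of steroids, sugars and lipid aldehydes, whereas SULT and GST enzymes couple sulfate or glutathione to their substrates.

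Several of these genes are close paralogs, and which of them a probe reads decides what its value means. The pair of probes below, for AKR1CL1 and for the second of the RefSeq genes called AKR1C1, aligns over its whole length without a gap, and capitals mark the 24 of 60 bases at which they differ (36 are identical).
AKR1CL1, probe A_72_P716823: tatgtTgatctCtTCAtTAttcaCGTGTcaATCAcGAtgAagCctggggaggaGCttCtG
AKR1C1 (second gene), probe A_72_P672532: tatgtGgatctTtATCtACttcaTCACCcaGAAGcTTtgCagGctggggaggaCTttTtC
A second pair, shown because both of its probes changed with serotonin, overlaps over 46 bases, of which 17 differ and are capitalised.
AKR1C4 (RefSeq AKR1CL1), probe A_72_P759584: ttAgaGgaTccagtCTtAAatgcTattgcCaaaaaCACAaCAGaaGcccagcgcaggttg
AKR1C1 (first gene), probe A_72_P569209: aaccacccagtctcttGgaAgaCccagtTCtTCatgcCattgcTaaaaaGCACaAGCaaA
The CYP11A1 and ALDH2 probes that follow are printed as examples of the sequence on which the changes of these genes were also read. Each of the 6 sequences, taken 5′ to 3′ from the array files, has at least 1 reading frame without a stop codon, which alone does not show that it is coding.
CYP11A1, probe A_72_P381703: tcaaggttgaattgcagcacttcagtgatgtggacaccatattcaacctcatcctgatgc
ALDH2, probe A_72_P610194: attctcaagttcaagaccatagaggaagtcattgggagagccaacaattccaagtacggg

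By the transcripts that the array files list for each probe, matched to RefSeq (Sscrofa11.1), AKR1C4 is not a gene of its own, because its probe targets AKR1CL1. The 6 probes named AKR1C1 fall on 2 RefSeq genes of that name, 3 probes each, and 1 of the first 3, A_72_P569209, also lists a transcript of LOC733635. In RefSeq, AKR1CL1, the first AKR1C1, a noncoding RNA gene, LOC733635, the second AKR1C1 and AKR1E2 follow each other in this order on 1 chromosome. The probes named SULT1A1 target the gene now called SULT1A3, and 1 of the 3 probes named GSTA2 lists a transcript of GSTA1. The names of the array are kept below.

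Levels are log2 intensities relative to the 75th percentile of each array, and ratios are differences of these levels. A gene is represented by its brightest probe. The share of all probes well above background was 56.5% in PIP cells, 56.6% in pMA, 61.0% after serotonin and 66.0% after TNF-α. No spot was saturated, and the 75th percentile lay between 479 and 566 intensity units. For 24 probes spotted repeatedly, the standard deviation between spots was 0.11 to 0.16 on the log2 scale, which gives 0.19 for a log2 ratio and covers only the noise of spots. Where only 1 of the compared arrays gave a probe a signal well above background, the ratio is a lower bound, set against the higher of the probe's own value and the faintest signal well above background on the dim array. Ratios of at least 2-fold, the cutoff of the methods, were counted as changes. Of 10 adipocyte markers on the array, 7 were well above background in PIP cells, pMA and serotonin-treated pMA and 8 after TNF-α. The mean log2 level of all 10, with the dim ones, was -3.74, -2.23, -2.25 and -1.68 in this order. Of 8 with a ratio in pMA against PIP cells 4 rose at least 2-fold (50.0%, beside 9.94% of all gene names, median 0.93). LPL (0.38) and LIPE (0.12) were among those that did not. In pMA, CD36, a fatty acid transporter, rose by 5.17 on the log2 scale, with 1.19 from the other of its 2 probes with a measured ratio. CIDEC, a lipid droplet protein, rose by 3.88 on 1 of its 2 probes. PLIN1 was not well above background on any array, and ADIPOQ was so in PIP cells but not in any pMA. FABP4, a fatty acid binding protein, fell by 2.77 on the log2 scale after serotonin, having risen at least 8.48-fold with differentiation. Of 8 muscle markers 5 to 6 were well above background, ACTA1 with levels of 9.31, 9.33, 7.40 and 9.22. MYOD1 and MYF5, regulators of the muscle lineage, were dim on every array, and MYH1 was dim in PIP cells. Among markers of other cell types, the fibroblast marker LUM rose by 1.79 in pMA (1.55 to 2.07 over 9 probes). It was the only one of 6 fibroblast markers with a ratio to pass 2-fold there (median 0.36). Of 6 muscle markers with a ratio, 0 reached 2-fold in pMA (median 0.39). Markers that moved with serotonin are given beside its results. The part of these markers in the ratios of the enzymes was not tested.

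Of the 60 members, 34 were well above background on all 4 arrays, 17 on none and 9 on some. This is 56.7% of the members on all arrays, beside 47.1% of all gene names, and 28.3% on none, beside 36.0%. The families differed in this respect. All 6 ALDH, all 7 AKR and all 5 HSD17B members were well above background on every array, as was HSD3B1, which makes the 3-keto steroids. Among the 30 P450 names, 9 were well above background on every array and 14 on none. Of 12 P450s of drug metabolism, 7 were dim throughout, among them all 5 CYP2C members (CYP2C32, CYP2C33, CYP2C34, CYP2C42 and CYP2C49) and CYP2E1, and only CYP2A19 was bright enough on all 4 arrays. The hepatic bile acid enzymes CYP7A1, CYP8B1 and CYP27A1, and CYP27B1, which activates vitamin D, were dim on every array. So were CYP17A1, which makes androgens, the CYP19A1 paralogs CYP19A2 and CYP19A3, and the sulfotransferase SULT2A1. CYP21A2, the steroid hydroxylase of the adrenal, was well above background in both stimulated pMA, at -4.47 after serotonin and -4.21 after TNF-α. It was not in pMA, at -4.10, so no ratio could be formed. CYP26A1, which degrades retinoic acid, was well above background only after TNF-α, at -4.80, close to the faintest detectable signal of -5.25. That array had the most probes well above background and the lowest such limit, beside -4.64 in pMA. Detection on it alone, here and below, does not by itself show a rise. A dim probe shows only that the level was not well above background. ALDH1A1, ALDH1A2, ALDH1A3, CYP26B1, CYP7B1, CYP51A1 and UGT enzymes are not among the gene names analysed here.

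**Figure D1:**
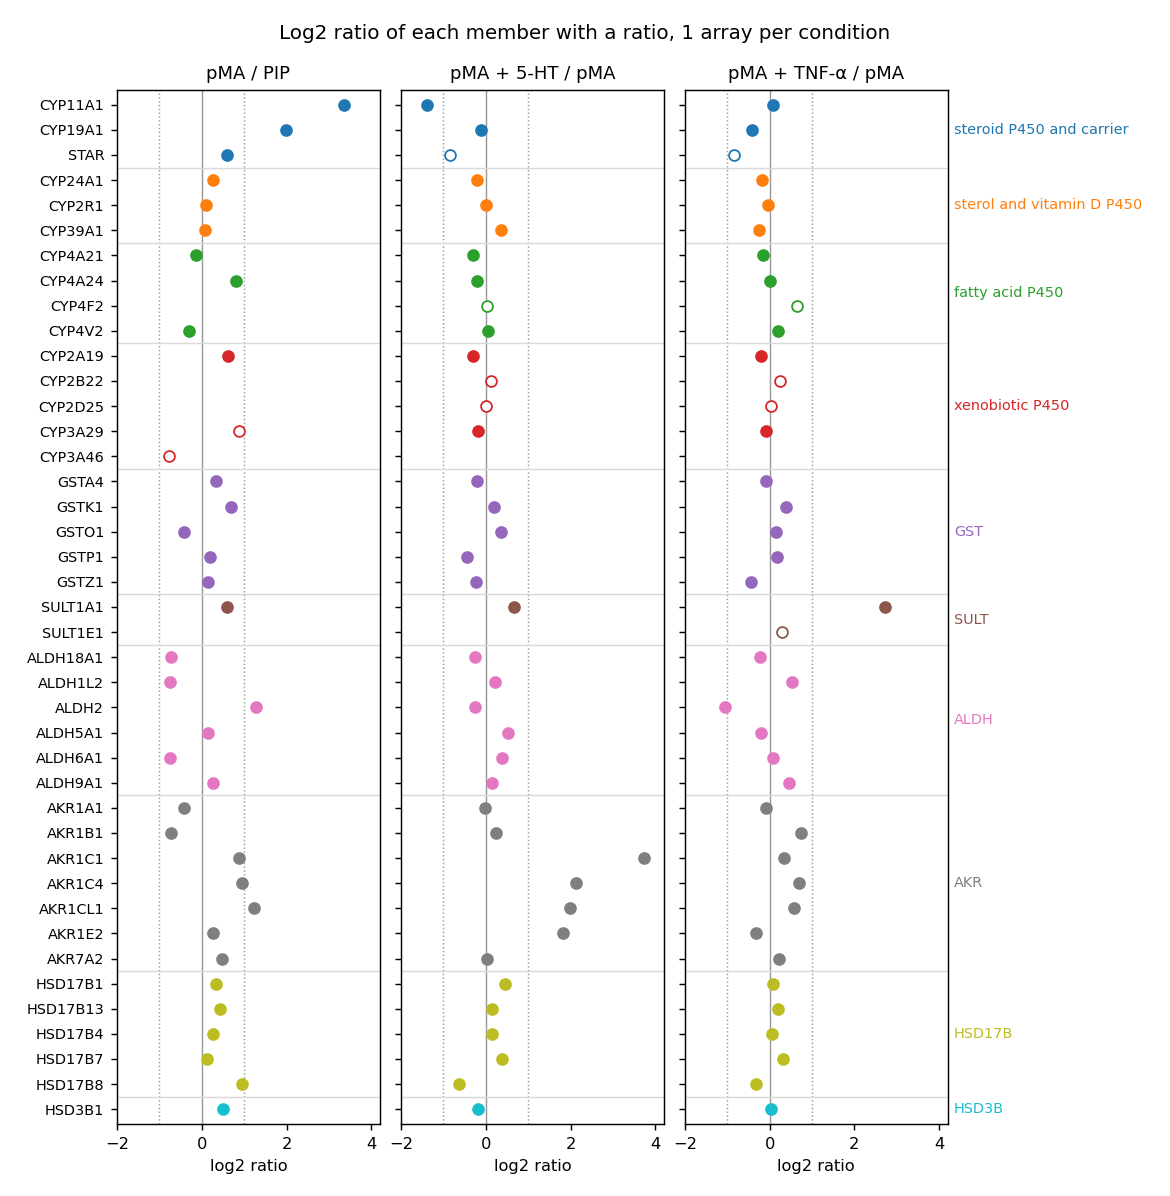
Log2 ratio (x axis) of each member with a ratio in at least 1 comparison, by family, for pMA over PIP cells, serotonin-treated over unstimulated pMA and TNF-α-treated over unstimulated pMA. Filled points are measured ratios, open points are lower bounds, dotted lines mark 2-fold, and each point rests on 1 array per condition; CYP11A1 and CYP19A1 stand out on the left, 4 AKR1 names in the middle and SULT1A1 on the right.

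The comparison of pMA with PIP cells asks which of these enzymes changed with differentiation. The first enzyme of steroid synthesis and aromatase were higher in pMA, together with the mitochondrial aldehyde dehydrogenase ALDH2 and the aldo-keto reductase AKR1CL1, and 0 members had a ratio of 2-fold or more downward. CYP11A1 rose 10.3-fold and CYP19A1 3.96-fold, while ALDH2 and AKR1CL1 rose 2.41-fold and 2.35-fold. A ratio was obtained for 37 members, of which 4 (10.8%) rose at least 2-fold, beside 9.94% of all 18633 gene names with a ratio, and 0 fell, beside 3.56%. The 2 lower bounds among them, for CYP3A29 and CYP3A46, may hide changes past 2-fold, and 23 members had no ratio. The share of members that rose is thus near that of all genes. The median log2 ratio was 0.27 over 35 members with a measured ratio and 0.11 over all gene names. Of the 37 members 28 lay above 0, beside 10824 of the 18633 gene names.

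CYP11A1 had levels of -2.25 in PIP cells, 1.11 in pMA, -0.28 after serotonin and 1.20 after TNF-α. PIP cells were the lowest of the 4 conditions and serotonin-treated pMA the lowest of the pMA. All 4 probes of CYP11A1 were higher in pMA than in PIP cells, by 1.36 to 3.55 on the log2 scale, with the probe printed above at the upper end. The brightest probe, which gave the reported values, matched no RefSeq transcript. The other probes matched CYP11A1 and gave 1.36, 2.23 and 3.55. The cholesterol carrier STAR was faint, with levels of -4.87, -4.28, -5.13 and -5.11. It was well above background in PIP cells and pMA with a log2 ratio of 0.59, and not after either stimulation. The STAR probe read here matched no RefSeq transcript. Of the other 7 STAR probes, 1 was well above background, on the TNF-α array. NR5A1, the nuclear receptor of steroid-making cells, was well above background only after TNF-α, and LHCGR and MC2R, the receptors that drive steroid synthesis in gonad and adrenal, on no array. HSD3B1, the enzyme that follows CYP11A1, had a ratio of 0.50 from 1 of its 2 probes, the other being dim on every array.

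CYP19A1 had levels of 0.79, 2.77, 2.66 and 2.35 in PIP cells, pMA, serotonin-treated and TNF-α-treated pMA. All 3 pMA arrays were above the PIP array and lay within 0.43 of each other. Its rise rests on 1 probe, A_72_P641224, because the second probe was well above background only after TNF-α. CYP19A2 and CYP19A3, which lie beside CYP19A1 in RefSeq, were dim on all arrays.

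ALDH2, which clears acetaldehyde and lipid aldehydes, had levels of 5.27, 6.54, 6.27 and 5.48. The PIP and TNF-α arrays were low and the other pair of arrays high. All 9 probes showed a rise in pMA, from 1.09 to 1.81, and the probe printed above gave 1.09. The other 5 ALDH members lay between -0.76 and 0.27, with ALDH1L2 (-0.76) and ALDH18A1 (-0.72) of folate and proline metabolism and ALDH6A1 (-0.75) of valine metabolism the lowest. Their probes disagreed, since the others gave -0.65 and -0.02 for ALDH1L2 and 0.63 and -0.17 for ALDH6A1.

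AKR1CL1 had levels of 4.43, 5.66, 7.65 and 6.23, with PIP cells lowest and serotonin-treated pMA highest. Its 3 probes gave 1.01 to 1.23 in pMA, and the AKR1C4 probe, which targets the same gene, gave 0.95 and so stayed under 2-fold. AKR1C1 lay at 0.89 and AKR1E2 at 0.27. In the opposite direction, AKR1B1, aldose reductase, had a ratio of -0.73, with -0.70 from its second probe. HSD17B8, which acts on estradiol and in mitochondrial fatty acid synthesis, was at 0.95, with 0.56 and 0.58 from its other probes, and all 5 HSD17B members lay above 0, from 0.13 up.

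No member of the remaining families had a ratio past 2-fold. The sterol and vitamin D P450s CYP2R1 and CYP39A1 differed by 0.10 and 0.07. CYP4A24, a fatty acid hydroxylase, was at 0.81, and its second probe was at least 1.98-fold higher in pMA. CYP3A29, a drug-metabolising P450, was at least 1.84-fold higher and CYP3A46 at least 1.71-fold lower in pMA, both close to the background. The 5 GST members with a ratio lay between -0.41 (GSTO1) and 0.70 (GSTK1), and CYP2A19 was at 0.61.

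The direction of the smaller ratios depended on the scaling. After scaling to the median in place of the 75th percentile, the median log2 ratio of all gene names moved from 0.11 to -0.24, and the gene names at least 2-fold higher and lower moved from 1852 and 663 to 854 and 1647. CYP11A1 and CYP19A1 then still passed 2-fold, ALDH2 (0.92) and AKR1CL1 (0.88) did not, and ALDH1L2, ALDH6A1, ALDH18A1, AKR1B1 and CYP3A46, named here after their values were seen, passed it downward with -1.11, -1.10, -1.07, -1.08 and at least 2.18-fold, for ALDH1L2 and ALDH6A1 on the brightest of probes that disagreed.

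**Figure D2:**
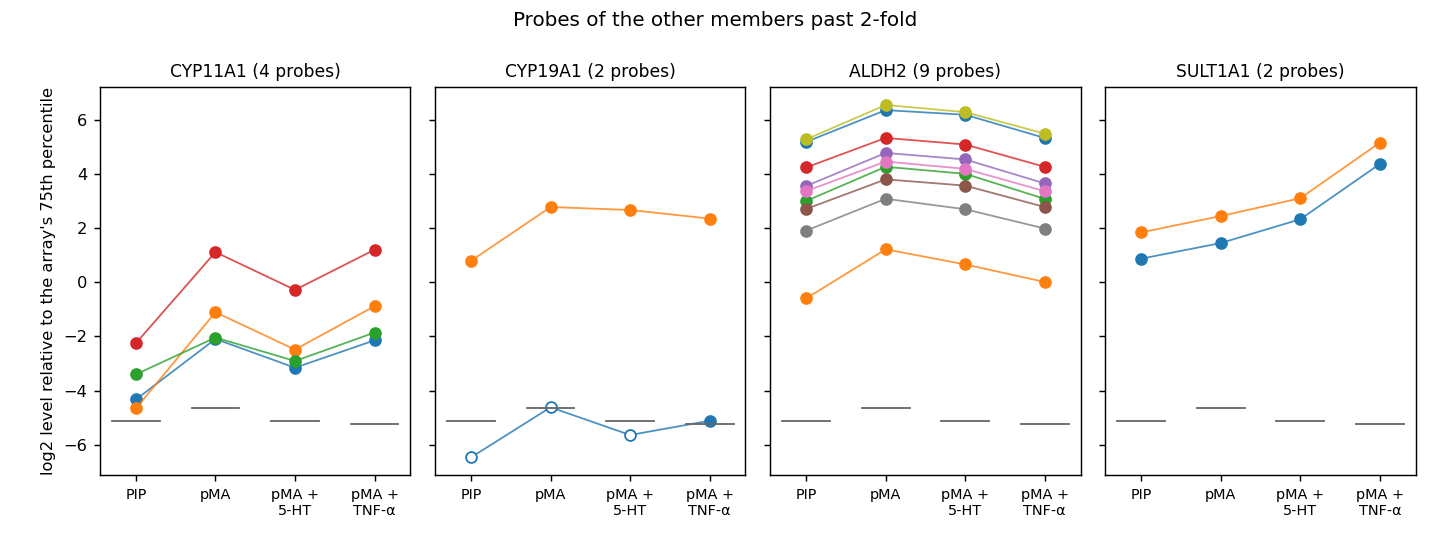
Log2 level relative to the 75th percentile of the array (y axis) of every probe of CYP11A1, CYP19A1, ALDH2 and SULT1A1 on the 4 arrays (x axis). A line joins the values of 1 probe, filled points are well above background, open points are not, and short bars mark the faintest signal well above background on each array; all 4 CYP11A1 probes dip after serotonin, all 9 ALDH2 probes fall back after TNF-α and both SULT1A1 probes peak there.

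The comparison of serotonin-treated with unstimulated pMA asks what the amine changed within 12 h. A group of neighbouring aldo-keto reductase genes rose, by 3.56-fold to 13.3-fold, and CYP11A1 fell 2.63-fold, while no other ratio passed 2-fold. AKR1C1 rose by 3.73 on the log2 scale, AKR1C4 by 2.13, AKR1CL1 by 1.99 and AKR1E2 by 1.83. Of 39 members with a ratio 4 (10.3%) rose at least 2-fold, beside 2.08% of all 19095 gene names, and 1 (2.56%) fell, beside 4.73%. All 4 that rose are AKR1 names. They are not 4 separate measurements, since AKR1C4 and AKR1CL1 are 1 RefSeq gene. The median log2 ratio was 0.05 over 35 measured members and -0.01 over all gene names. Of these 35 members 28 differed less than 1.5-fold, beside 14071 of 17367 gene names with a measured ratio. The other 4 ratios, for STAR, CYP4F2, CYP2B22 and CYP2D25, are lower bounds that may hide larger changes, and 21 members had no ratio.

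AKR1C1, a reductase of steroids and prostaglandins, had levels of -2.04 in PIP cells, -1.15 in pMA, 2.59 after serotonin and -0.82 after TNF-α. The serotonin array stood above the other 3, which lay within 1.22 of each other. The 3 probes of the first AKR1C1 gene all rose: A_72_P077461 by 3.73, A_72_P569209 by 5.43, and A_72_P532882, dim in unstimulated pMA, at least 27.4-fold. The 3 probes of the second AKR1C1 gene did not pass background after serotonin, among them the probe printed above (-7.21, -6.40, -5.77 and -6.26), so the rise was read on 1 of the 2 genes. The probe A_72_P569209 cannot tell the first AKR1C1 gene from LOC733635 where their transcripts match.

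The 3 probes of AKR1CL1 rose by 1.99 to 2.13, and the AKR1C4 probe, with levels of 2.69, 3.63, 5.76 and 4.33, by 2.13. On each of these 4 probes serotonin-treated pMA were highest and PIP cells lowest. AKR1E2, at the other end of the cluster in RefSeq, had levels of 1.26, 1.53, 3.36 and 1.20 from its single probe, so the serotonin array alone was high. Not every gene of the cluster was read as higher, since the second AKR1C1 gene did not pass background. Among the other AKR members, AKR1A1 had a ratio of -0.01, AKR7A2 of 0.02 and AKR1B1 of 0.24.

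**Figure D3:**
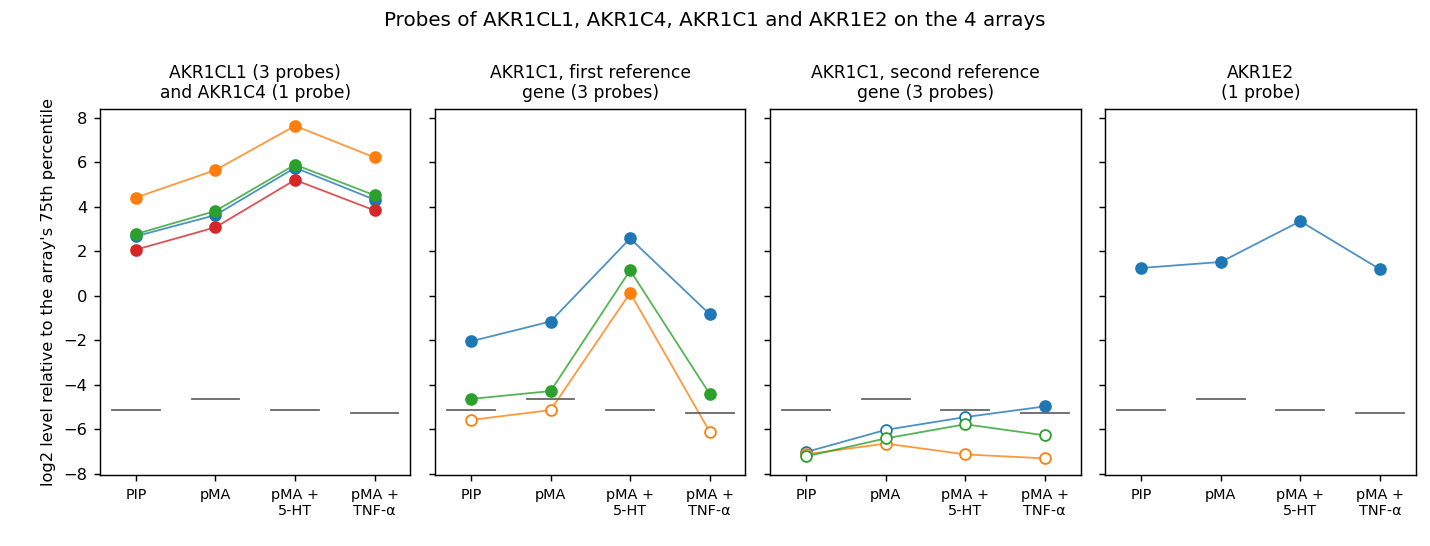
Log2 level relative to the 75th percentile of the array (y axis) of the probes of AKR1CL1, AKR1C4, AKR1C1 and AKR1E2 on the 4 arrays (x axis), grouped by the RefSeq gene they target. A line joins the values of 1 probe, filled points are well above background, open points are not, and short bars mark the faintest signal well above background; the probes of AKR1CL1, AKR1C4, the first AKR1C1 gene and AKR1E2 peak after serotonin, and the 3 of the second AKR1C1 gene stay near or under that signal.

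CYP11A1 fell by 1.40 on the log2 scale after serotonin, with ratios from -1.40 to -0.86 over its 4 probes, to a level that remained above that of PIP cells on all of them. STAR was no longer well above background and was at least 1.80-fold lower. This is a log2 ratio of -0.85, which became -0.36 with another background correction (normexp). CYP19A1 differed by -0.11 and HSD3B1 by -0.18. HSD17B8 was at -0.63, with -0.69 and -0.65 from its other 2 probes. HSD17B1, which makes estradiol, was at 0.47, with 0.15 from its second, much fainter probe. SULT1A1, which sulfates phenols, was at 0.66, with 0.88 from its second probe. ALDH2 was at -0.26, with negative values from all 9 probes, and ALDH5A1, which oxidises succinic semialdehyde, at 0.52. The GST members lay between -0.45 (GSTP1) and 0.36 (GSTO1). In the same comparison LPL (2.41) and CD36 (1.47) were higher and FABP4 (-2.77) lower among 7 adipocyte markers with a ratio. Some markers of other cell types were lower. ACTA1 had a ratio of -1.94 and DES of -1.02 among 6 muscle markers with a ratio (median -0.70). COL1A1 had a ratio of -1.41 and DCN of -1.16 among 6 fibroblast markers (median -0.89). Others did not fall, or hardly, as the muscle markers PAX7 (0.39) and MYOG (-0.01) and the macrophage marker CD14 (-0.02). Over the probes with a measured ratio, ACTA1 ranged from -2.63 to -0.26 (10 probes) and DES from -2.59 to -1.02 (3 probes). The endothelial marker PECAM1 was also lower, by -1.46, with -0.44 at the other end of its 3 probes with a measured ratio. Whether this is connected with the CYP11A1 ratio was not tested, and fewer cells of a kind and less RNA per cell cannot be told apart in these pools.

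The comparison of TNF-α-treated with unstimulated pMA asks the same of the cytokine. SULT1A1 rose 6.55-fold and ALDH2 fell 2.08-fold, and no other ratio passed 2-fold. Of 40 members with a ratio 1 (2.50%) rose, beside 2.21% of all 19782 gene names, and 1 fell, beside 1.34%, so both shares were near those of all genes. Of the 40 ratios 5 are lower bounds under 2-fold that may hide larger changes, and 20 members had no ratio. The median log2 ratio was 0.06 over 35 measured members and -0.03 over all gene names. Scaling to the median left both calls in place, while it changed the gene names higher and lower from 438 and 266 to 367 and 364.

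SULT1A1 had levels of 1.84 in PIP cells, 2.44 in pMA, 3.10 after serotonin and 5.15 after TNF-α. TNF-α-treated pMA stood apart from the other 3 conditions. Its log2 ratio was 2.71, and the second probe gave 2.92. SULT1E1, estrogen sulfotransferase, was well above background only after TNF-α, at -4.35, and was at least 1.22-fold higher there, whereas SULT2A1 stayed dim.

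ALDH2 fell by 1.06 on the log2 scale, and its 9 probes ranged from -1.21 to -1.02. Its level after TNF-α, 5.48, lay 0.21 above that of PIP cells. The other ALDH members lay between -0.24 (ALDH18A1) and 0.52 (ALDH1L2), with ALDH9A1, which oxidises aminoaldehydes, at 0.46. Of the aldo-keto reductases that rose with serotonin, AKR1C4 had a ratio of 0.69, AKR1CL1 of 0.57, AKR1C1 of 0.33 and AKR1E2 of -0.33. AKR1B1 was at 0.75, with 0.91 from its second probe, and returned to 2.44 from 1.69, beside 2.42 in PIP cells. CYP11A1 differed by 0.09, with -0.05 to 0.22 over its probes, CYP19A1 by -0.43 and HSD17B8 by -0.32. STAR was at least 1.79-fold lower on its brightest probe, a log2 ratio of -0.84 that became -0.36 with another background correction (normexp). Another STAR probe, A_72_P714533, was dim in pMA and well above background after TNF-α. CYP4F2, a fatty acid hydroxylase near background, was at least 1.56-fold higher. Of the adipocyte markers CIDEC (1.94), FABP4 (1.45) and LPL (1.28) were also higher after TNF-α, and their part in these ratios was not tested.

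CYP24A1, the vitamin D hydroxylase, is a member whose level could not be tied to its name. Its brightest probe, A_72_P763826, had levels of 9.58, 9.85, 9.66 and 9.68, while the other 2 probes lay from -1.03 to -0.46 and from 0.89 to 1.24. The files list transcripts of RPL7L1 and ITGB3 for the bright probe as well. It shared runs of at least 16 bases with probes of 6 other gene names, a number reached by 1.06% of all probes, and the other 2 CYP24A1 probes shared such runs with 9 and 11 names. No other member probe shared one with more than 1 name, and 118 of the 147 shared none. Below are its first 30 bases, in which capitals mark the 27 that lie in a shared run.
CYP24A1, probe A_72_P763826, bases 1 to 30: tggCCTTGCTCAGTGGGTTAATGATCTGGC
The bright probe had ratios of 0.27, -0.20 and -0.17 in the 3 comparisons, and none of the 3 probes reached 2-fold. CYP4A21 likewise rested on 1 probe, at -0.08 to -0.50, which also lists a CYP4A24 transcript, while its other 3 probes were dim. The HSD17B1 values rest on a probe at 3.44 to 4.25 that matched no RefSeq transcript. The second HSD17B1 probe, which did match that gene, lay at -4.86 to -3.84.

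Genes that work beside these enzymes were taken from a list of redox partners, cholesterol carriers, retinoid genes and conjugation genes, of which 57 are considered here and 34 were on the array. In pMA against PIP cells 2 rose (6.67%) and 1 fell (3.33%) among 30 of these with a ratio, beside 9.94% and 3.56% of all gene names. Epoxide hydrolase EPHX1 rose by 2.30, HSD11B1, which regenerates active glucocorticoid, by 1.72, and ABCG2, an efflux pump, fell by 1.59. The 4 HSD11B1 probes with a ratio disagreed here, from 0.28 to 1.72, and the 4 ABCG2 probes ranged from -1.59 to -0.68. After serotonin 2 rose among 30 of these (6.67%, beside 2.08% of all gene names): the membrane glutathione transferase MGST1 by 1.77 (1.71 to 1.80 over 7 probes) and the retinol dehydrogenase RDH10 by 1.65. After TNF-α 3 rose among 31 of these (9.68%, beside 2.21%): HSD11B1 by 1.37 (1.14 to 1.65 over 4 probes), ABCG2 by 1.34 and the methyltransferase TPMT by 1.18. The electron donors stayed under 2-fold in every comparison. POR had ratios of 0.10, 0.50 and 0.35, FDX1 of -0.33, -0.25 and -0.08, and FDXR of -0.10, 0.40 and -0.19.

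Side by side, 3 of the 8 members that passed 2-fold did so in 2 comparisons. CYP11A1 rose in pMA and fell with serotonin, AKR1CL1 rose in both, and ALDH2 rose in pMA and fell with TNF-α. The 5 others passed it in 1 comparison each.

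**Figure D4:**
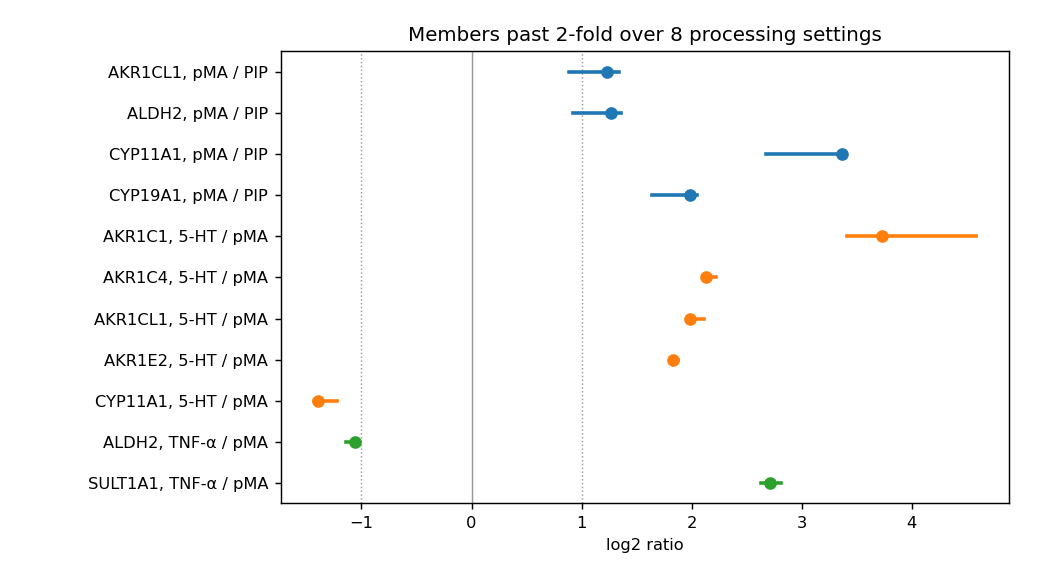
Log2 ratio (x axis) of each member past 2-fold, with a point for the reported value and a bar from the lowest to the highest value over 8 processing settings. Dotted lines mark 2-fold; only the bars of ALDH2 and AKR1CL1 in pMA against PIP cells cross it, reaching 0.92 and 0.88.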

How the data were processed

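Per the labels, Cy3-labelled cRNA of each condition was hybridised to 1 array. The methods name a mouse array in one place, but the deposited files are from a porcine array. The authors deposited spot intensity values from Agilent Feature Extraction 10.7.3.1 (version from the submitters' processing notes), background-subtracted by that software, all from 1 slide, and a value table with the ratio of this intensity to a constant per array, near its 75th percentile. Here log2 intensity was set relative to the 75th percentile of non-control spots. Outlier spots were left out (1 to 12 per array), spots of a probe averaged, and the brightest probe per gene name taken. Changes were called at 2-fold, with lower bounds where 1 array was dim. The number of arrays limits the precision. Members, gene lists and alternatives were chosen with earlier results of these data known. The text names all members past 2-fold, a set list of steroid, retinoid and AKR1C genes, the brightest of each family, and partners past 2-fold, of which 1 gene is not reported here; other values are given for context and were chosen after being seen. Alternatives were median scaling, quantile normalization, normexp (offset 50, limma 3.58.1 in R 4.3.3), no filter, a filter on all 4 arrays, the median over probes, a 4-fold cutoff and the value table. The calculation, in Python 3.11.15 with pandas 2.3.3 and numpy 2.4.6, was tested on simulated data. Gene names were matched to RefSeq (Sscrofa11.1), where 55 of the 60 are symbols. Of the marker lists, those of endothelial, macrophage, epithelial and hepatocyte genes had 2 to 3, 2, 1 to 3 and 1 to 4 members well above background, of 6, 3, 4 and 5.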

Additional observations from a re-analysis of the deposited data

How the results depend on the processing

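No paired analysis was possible because each condition has 1 array. Of 312 alternative values of the 15 named members with a ratio, 277 stayed within 0.19 of the reported value and 35 did not. The settings without a filter and with a filter on all 4 arrays leave a measured ratio as it is, so those values could not differ. The value table divides the same intensity by another constant per array, so it shifts all measured ratios of a comparison alike. For AKR1E2 it gave 0.29 in pMA against PIP cells, 1.82 after serotonin and -0.34 after TNF-α, beside 0.27, 1.83 and -0.33. The median over probes could not move members with 1 measured probe, such as AKR1C4, AKR1E2 and CYP19A1. Part of the 277 values, and of those compared for sign, was thus fixed in advance, or nearly so. Of the 11 changes of at least 2-fold, 0 changed sign. Smaller ratios could, as that of AKR1E2 in pMA against PIP cells, from 0.27 to -0.08 after median scaling. In pMA against PIP cells, the 4 members higher and 0 lower became 2 and 5 after median scaling, 10 and 2 with no filter on dim probes, and 6 and 1 after quantile normalization, and 1 was higher at a 4-fold cutoff. Their median log2 ratio, 0.27, became -0.075 after median scaling, with that of all genes, and 0.50 with no filter. After serotonin, the 4 higher became 2 at 4-fold (AKR1C1 and AKR1C4), and the 1 lower became 3 with no filter and 0 at 4-fold. The median became -0.15 with no filter. After TNF-α, the 1 higher became 3 with no filter, and the 1 lower became 2 after quantile normalization (with STAR), 2 with no filter and 0 at 4-fold. The members that no filter added were dim on at least 1 array. CYP11A1 in pMA against PIP cells lay between 2.67 (normexp) and 3.38, and AKR1C1 after serotonin between 3.41 (normexp) and 4.58 (median over probes). With 1 array a condition, the spread between cultures is unknown, and faint members such as STAR, CYP21A2 and CYP26A1 lie at the limit of detection.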
